A study of Vitis labrusca x Vitis vinifera with 9 samples.

Results

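Pruning plus hydrogen cyanamide (PHC) was the combined treatment of a study of bud release in the grapevine cultivar Kyoho, which the labels give as Vitis labrusca x Vitis vinifera. Canes of 5-year-old vines were cut above the eighth node in late August, the remaining top bud was sprayed with 1% hydrogen cyanamide, and the buds were sampled 24 h later. The PHC comparison was taken as the 3 arrays that the labels title pruning plus hydrogen cyanamide, of 9 arrays in all. Each array carried RNA of PHC buds in Cy5 and RNA of control buds, sprayed with water on unpruned canes, in Cy3. The other 6 arrays held, with the same kind of control, 3 samples with hydrogen cyanamide alone (HC, 1%) and 3 with pruning and water (P). The study's methods describe HC canes as unpruned, whereas the labels call them pruned, and this bears only on values set beside HC. The 3 replicates of a treatment came from 3 randomized blocks, and each drew on several single-node buds.

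In late summer the axillary buds of grapevine are paradormant: they are able to grow but are held back by the shoot tip and leaves above them. Removing the cane above a bud takes away that apical control. Hydrogen cyanamide, a spray used by growers to obtain even bud break in warm climates, inhibits catalase and disturbs mitochondrial respiration. A released bud resumes protein synthesis, cell division and wall loosening, whereas buds in winter dormancy and maturing seeds share abscisic acid signalling and protective proteins of the late embryogenesis abundant (LEA) type. The study ties abscisic acid to winter dormancy and considers its build-up unlikely in paradormant summer buds of irrigated vines.

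The grapevine array held 30128 probes, each named by a predicted gene of the reference genome (GSVIVT numbers), of which 26395 were bright enough to test. A value is a log2 ratio of PHC over control, so that 1 is a 2-fold rise and -1 a 2-fold fall, and a probe was called when its mean over the 3 arrays was at least 2-fold with an adjusted p under 0.05 in limma. PHC raised 3552 probes and lowered 3083, which is 13.5% and 11.7% of those tested. These shares are called the background below. The log2 ratios of the 3 arrays correlated at 0.823 to 0.916 across probes, and replicate 2 had the narrowest spread (SD 0.968, against 1.06 in replicate 1 and 1.10 in replicate 3). Of the called probes, 3536 of the higher and 3074 of the lower ones had 1 sign on the 3 arrays, and 2499 and 2021 were past 2-fold on each of them. Changes of at least 8-fold were called for 274 higher and 72 lower probes. For 126 of the higher probes the control, and for 39 of the lower ones the treated RNA, was not well above background on any PHC array, so their fold is only a bound. Control RNA was in Cy3 throughout, so a dye effect stays in each ratio, and the labels and files give no slide or scan batch. Marker lists for meristem and for secondary-wall xylem matched 0 tested probes, so the labelled tissue could not be checked with them. In whole buds, a change in the share of a cell type and a change in RNA per cell cannot be told apart. With the intensities rescaled by median centring, 5486 probes were higher and 747 lower, which moves the share of higher calls to 88.0% of all calls, against 53.5%, and the median of all tested probes to 0.16, against -0.07.

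Names come from the study's tables or from the Arabidopsis homolog in the files, and 19339 tested probes had no description (2341 higher, 2324 lower). The 5115 tested probes with an informative name were higher in 944 cases and lower in 541 (18.5% and 10.6%, median 0.08). Outside the study's tables, 709 of 4754 were higher and 443 lower. Lists are matched by name, so the named probes are a nearer comparison for them than all probes. Because the study's tables were chosen on these same samples, a list rich in their members is not independent evidence of its direction, and counts outside the tables are given beside most such lists. Probes of close relatives, such as the stilbene synthases and peroxidases, may share signal.

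The largest named rises and falls after PHC came from many families. They are given among probes with treated and control RNA both well above background on 2 or more PHC arrays. This leaves out probes of dim control RNA such as dirigent protein 7 (GSVIVT00024739001), singled out after its values were seen, whose control was not well above background on any array and whose rise was at least 4.85-fold. The proline-rich protein-like gene GSVIVT00009622001, of a family of structural wall proteins, then stood highest with 4.96, 6.23 and 6.16 on the 3 PHC arrays, a mean of 5.78 ± 0.72 (SD, n = 3), or 55.1-fold (adjusted p = 5.89e-05). An aspartic proteinase of the nepenthesin type (GSVIVT00015118001) had 4.74, 5.41 and 5.19, and a BTB/POZ domain protein (GSVIVT00021238001), of a family of ubiquitin ligase adaptors, with 4.70, 5.22 and 5.23. No PHC array was below 4.70 for any of these 3 genes. Serine carboxypeptidase-like 45 (GSVIVT00023266001) had log2 ratios of 4.26, 5.01 and 5.00, whereas a subtilisin-like protease (GSVIVT00026319001) was more scattered with 3.56, 4.91 and 5.46 (adjusted p = 0.00308). The putative 12-oxophytodienoate reductase 11 (GSVIVT00021918001), of the enzyme family that reduces a jasmonate precursor, gave 5.47, 5.35 and 5.27 with control RNA well above background on only 2 of the arrays.

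**Figure D1:**
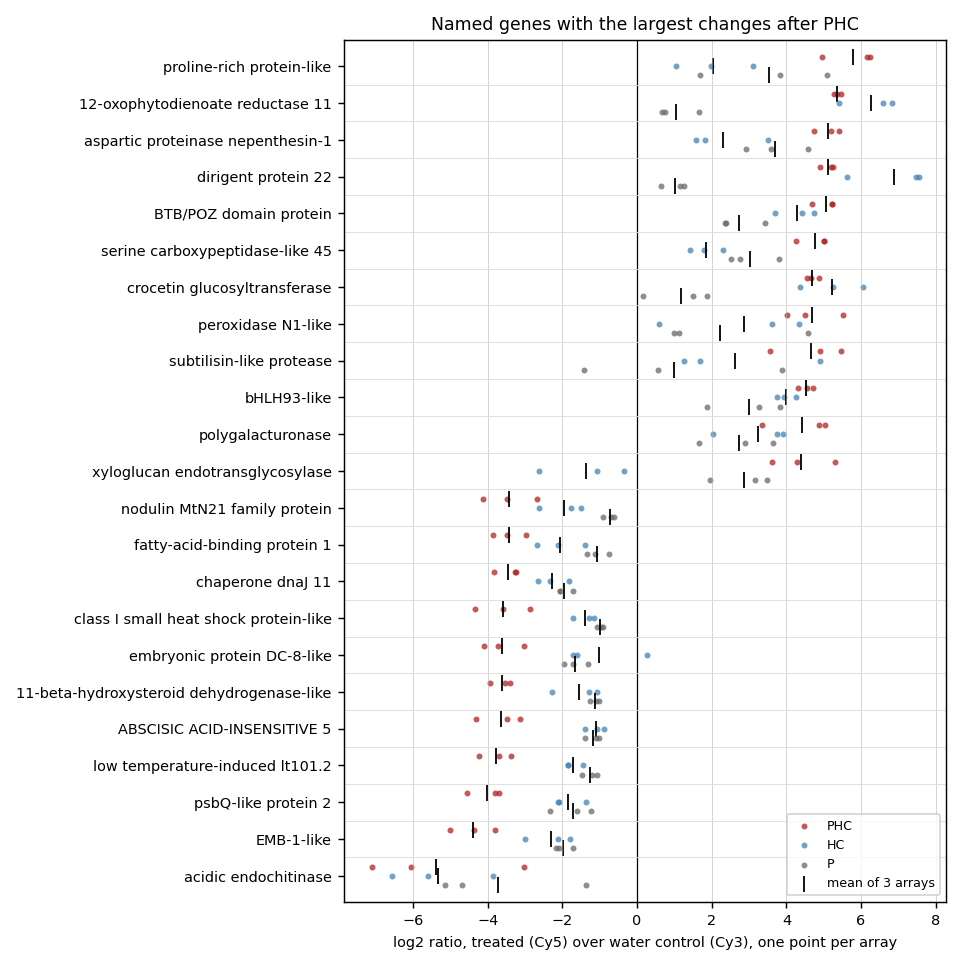
Log2 ratio of treated over water control (x axis) for 23 named genes, 1 point per array for PHC (red), HC (blue) and P (grey), with black ticks for the means of 3 arrays. The PHC points of the 12 upper genes are all at 3.34 or above and those of the 11 lower genes at -2.68 or below, and only the xyloglucan endotransglycosylase has HC points below 0 among the upper genes.

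The acidic endochitinase GSVIVT00026960001, a chitin-degrading enzyme, fell furthest and with the widest spread, -3.02, -7.11 and -6.06 (adjusted p = 0.000927), and both channels were well above background on 2 of the arrays. EMB-1-like (GSVIVT00029315001), a LEA protein of the group first found in embryos, had -3.80, -4.36 and -5.01, a mean of -4.39 ± 0.61 (SD, n = 3). The psbQ-like protein 2 (GSVIVT00027434001), a chloroplast protein related to a photosystem subunit, had -4.57, -3.70 and -3.82. For these 3 genes no PHC array came near 0. An 11-beta-hydroxysteroid dehydrogenase-like gene (GSVIVT00017972001), whose plant relatives sit on oil bodies, a fatty-acid-binding protein 1 (GSVIVT00020652001) and a nodulin MtN21 family protein (GSVIVT00015369001) fell to means of -3.63, -3.44 and -3.43.

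Translation stood out among the lists by its breadth. Of 64 tested cytosolic ribosomal proteins, 42 rose and 0 fell, which is 65.6% higher beside 13.5% of all probes, and the list's median was 1.19 beside -0.07 for all tested probes. Its medians on the single arrays were 1.10, 1.13 and 1.39. The largest rise was that of 40S ribosomal protein S17 (GSVIVT00021536001), a small-subunit component, with 3.64, 3.38 and 3.86 on the PHC arrays, a mean of 3.63 ± 0.24 (SD, n = 3) (adjusted p = 5.78e-06). The large-subunit proteins L21 (GSVIVT00025430001) and L31 (GSVIVT00016611001) had 2.19, 2.41 and 2.73 and 2.52, 2.09 and 2.55. Only 2 members came from the study's tables, and outside them 40 of 62 rose. The 10 ribosomal proteins of organelles did otherwise: 0 rose and 1 fell, a putative 30S protein (GSVIVT00037171001) with -2.97, -2.58 and -3.50, although their median was 0.44. With median centring, 6 of these 10 rose.

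Pentatricopeptide repeat proteins, which process RNA in mitochondria and chloroplasts, were mostly shifted by less than 2-fold. Of 289 tested, 66 rose and 8 fell (22.8% and 2.8%), with a median of 0.44. The member with the largest rise that was measured in both channels, GSVIVT00027837001, had 2.78, 2.15 and 2.49, and the one with the largest fall, GSVIVT00032322001, had -2.25, -2.11 and -2.52. With a loess fit on rebuilt signals 35 rose and 4 fell.

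The nuclear genes of respiration were raised in part of each list and lowered in none. In the respiratory chain 10 of 21 rose with a median of 0.64, all of them outside the study's tables. In the tricarboxylic acid cycle list, matched by enzyme name, 7 of 14 rose with a median of 1.08. Those that rose include a cytosolic malate dehydrogenase, a cytoplasmic aconitase and an ATP-citrate synthase, which are not of the mitochondrial cycle. A cytochrome c oxidase family protein (GSVIVT00034556001), of the terminal complex of the chain, had 2.04, 1.55 and 1.73, and the iron-sulfur subunit of ubiquinol-cytochrome c reductase (GSVIVT00006205001) had 1.72, 1.25 and 1.66. Mitochondrial malate dehydrogenase (GSVIVT00035904001) and aconitase 2 (GSVIVT00025952001), both enzymes of the cycle, had means of 2.09 ± 0.32 (SD, n = 3) and 2.21 ± 0.18 (SD, n = 3). The ATP-citrate synthase alpha chain (GSVIVT00002749001), a cytosolic enzyme that makes acetyl-CoA from citrate, had 2.64, 2.20 and 2.62.

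Glycolysis was split. Of 22 genes 9 rose and 4 fell, with a median of 0.90. Cytosolic glyceraldehyde-3-phosphate dehydrogenase (GSVIVT00035097001) had 3.26, 4.23 and 3.52 and phosphoglycerate mutase (GSVIVT00015262001) 2.44, 2.10 and 2.57, both enzymes of the lower part of the pathway. The genes that fell were a pyruvate kinase family member (GSVIVT00006511001, -1.29, -1.09 and -1.48), a pair of putative aldolases and a 2-phosphoglycerate kinase-related gene. The last of these does not carry the name of a glycolytic enzyme. The pyruvate kinase call was lost with median centring, under which 0 of the 22 fell.

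In the list of hypoxia and fermentation genes, matched by name, 7 of 9 rose and 0 fell (median 1.61), with 4 of 6 rising outside the study's tables. Those that rose include the alternative oxidase VvAOX2 (mean 1.07) and a putative allyl alcohol dehydrogenase (GSVIVT00004110001, mean 1.61), which are not enzymes of fermentation. Sucrose synthase (GSVIVT00016378001), which cleaves sucrose, had 3.43, 3.13 and 3.17, and a putative alcohol dehydrogenase (GSVIVT00013864001), the last step of ethanol fermentation, had 1.58, 1.60 and 1.89. ERF073 (GSVIVT00028041001), whose Arabidopsis counterpart is induced by hypoxia, had 4.06, 4.41 and 4.03, a mean of 4.17 ± 0.21 (SD, n = 3). All PHC arrays of these 3 genes were past 2-fold. Starch synthesis and breakdown was represented by 2 tested probes, and 0 were called.

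DNA replication and the mitotic motors were raised in a minority of members and lowered in 0. Of 32 cell cycle and replication genes 9 rose, with a median of 0.53, and of 22 kinesins, which move along microtubules in the spindle and the dividing cell, 7 rose with a median of 0.71. A DNA replication licensing factor (GSVIVT00003433001), of the complex that opens replication origins, had 3.06, 3.87 and 3.95, a mean of 3.63 ± 0.49 (SD, n = 3) (adjusted p = 0.000317). A second licensing factor (GSVIVT00035935001) had 1.83, 2.36 and 3.24 and a putative ATP-dependent DNA helicase (GSVIVT00035084001) 2.10, 2.75 and 2.92. Replicate 1 was the lowest of the 3 arrays for these genes. The CDT1-like protein a (GSVIVT00007506001), a licensing protein singled out after its values were seen, had the largest ratio of all named probes, 5.92, 7.10 and 5.91, but its control signal was not well above background on any array. Its rise is given as at least 5.67-fold, the mean treated signal against the higher of the detection limit and the probe's own control signal.

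Histone H2AX (GSVIVT00023623001), a nucleosome histone, had 1.62, 3.05 and 3.06 and histone H4 (GSVIVT00018517001) 0.92, 1.51 and 1.38, and these were the 2 of 5 nucleosome histones that rose. Among kinesins, GSVIVT00034396001, GSVIVT00000424001 and GSVIVT00036821001 had means of 1.85 ± 0.35 (SD, n = 3), 1.80 ± 0.28 (SD, n = 3) and 1.73 ± 0.19 (SD, n = 3). With the loess fit 3 kinesins rose, and without PHC replicate 3 there were 4. Of 4 tubulins and actins, 0 were called, with a median of 0.23.

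**Figure D2:**
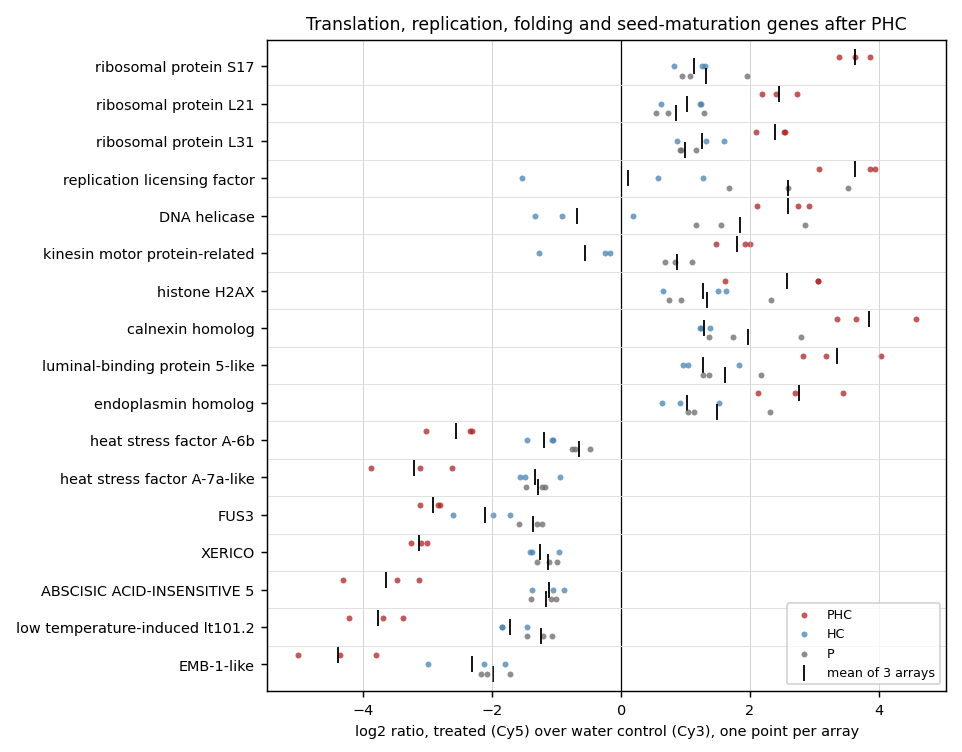
Log2 ratio of treated over water control (x axis) for 17 genes of translation, replication, folding and seed maturation, 1 point per array for PHC (red), HC (blue) and P (grey), black ticks marking means. The PHC points of the ribosomal, replication, kinesin, histone and chaperone genes are all at 1.48 or above, and those of the heat stress factors and seed-maturation genes are all at -2.32 or below.

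In the list of chaperones of the endoplasmic reticulum, where secreted and wall proteins fold, 7 of 8 members rose with a median of 2.63. Of the 8, 6 are in the study's tables, and 1 of the other 2 rose. That one (GSVIVT00017841001, mean 1.04) is named only as an electron carrier and protein disulfide oxidoreductase, so it need not be a chaperone of this compartment. The calnexin homolog (GSVIVT00011650001), a lectin that holds new glycoproteins, had 4.57, 3.35 and 3.64, a mean of 3.85 ± 0.64 (SD, n = 3) (adjusted p = 1.31e-05). The luminal-binding protein 5-like gene (GSVIVT00037232001), the Hsp70 of this compartment, had 4.04, 2.83 and 3.18, and the endoplasmin homolog (GSVIVT00014401001), its Hsp90, had 3.44, 2.13 and 2.69. Replicate 1 was the highest array in all 3.

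Heat stress transcription factors, a family of regulators of chaperone genes, fell in 6 of 10 cases and rose in 3, and all 10 stand in the study's tables. Factor A-7a-like (GSVIVT00016537001) had -3.13, -2.63 and -3.88, factor A-6b (GSVIVT00020055001) -2.34, -2.32 and -3.03 and factor C-1 (GSVIVT00016746001) -2.03, -2.54 and -2.86, whereas B-4-like (GSVIVT00014836001) had 1.63, 1.37 and 2.06. Members of the B class went both ways, since B-2b (GSVIVT00001119001) and B-2a (GSVIVT00007367001), added after their values were seen, had -0.85, -0.99 and -1.66 and -0.93, -0.81 and -1.32 and were called lower, though neither was without PHC replicate 3 or with median centring, nor B-2a with the loess fit. Without PHC replicate 3, 4 fell and 2 rose, and with median centring 3 fell and 3 rose.

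Of 21 probes matched by name to heat shock proteins 4 fell and 2 rose, near the background, with a median of -0.29. The falls include GSVIVT00027204001 (mean -1.35) and GSVIVT00014180001 (mean -1.15), which are named for binding heat shock proteins and need not be heat shock proteins themselves. The class I member GSVIVT00000343001, a small heat shock protein, had -3.58, -2.87 and -4.33 and a class P-related one (GSVIVT00011498001) 2.44, 1.62 and 2.27. DnaJ chaperones, co-chaperones of Hsp70, were called in 5 (higher) and 4 (lower) of 58 cases, fewer than the background shares, although dnaJ 11 (GSVIVT00036090001) had -3.26, -3.25 and -3.83. Under median centring 5 heat shock proteins rose and 1 fell, and 17 DnaJ chaperones rose and 2 fell.

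**Figure D3:**
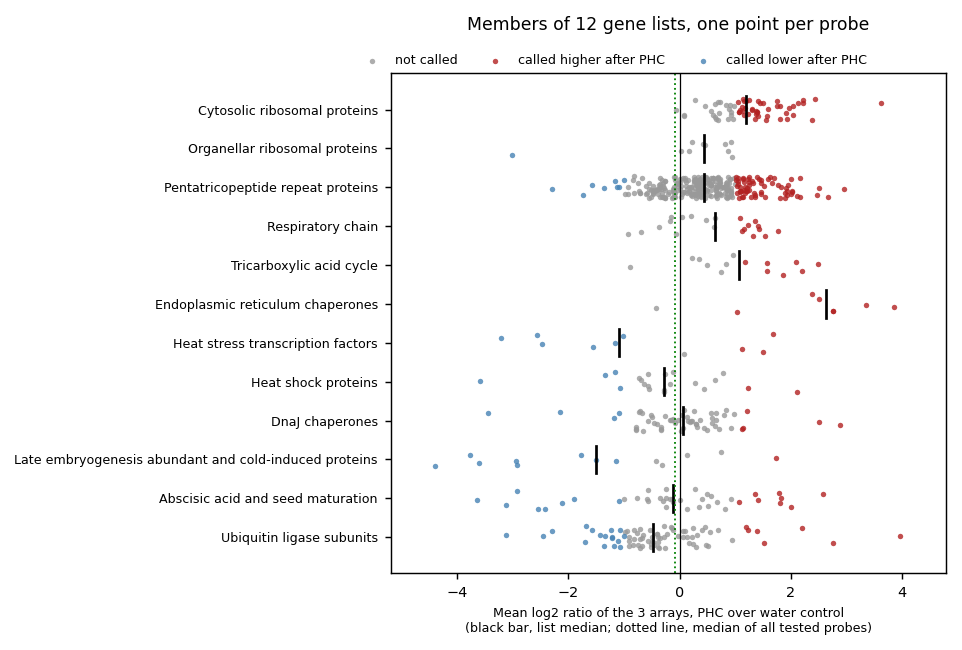
Mean log2 ratio of PHC over water control (x axis) for each tested member of 12 gene lists (rows), red where called higher, blue where called lower and grey where not called, with a black bar at the list median and a dotted line at the median of all tested probes, -0.07. Cytosolic ribosomal proteins lie almost wholly to the right of 0 with 42 of 64 called, and 8 of 13 late embryogenesis abundant and cold-induced proteins are called lower.

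The 3 tested expansins, proteins that let wall polymers slip during growth, were all higher and all in the study's tables. Expansin-A1-like (GSVIVT00036942001) had 3.49, 4.06 and 4.10, the expansin-like gene GSVIVT00000851001 3.16, 3.60 and 3.63 and expansin-A4 (GSVIVT00023946001) 2.10, 2.45 and 2.40. Xyloglucan endotransglucosylases, which cut and rejoin hemicellulose chains, rose in 4 of 7 cases, and in 2 of the 5 outside the study's tables (median 0.04). The member with the largest rise (GSVIVT00006913001) had 5.31, 3.61 and 4.29 and the BRU1-like member (GSVIVT00007248001) 2.56, 2.68 and 2.67.

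Pectin-modifying enzymes rose in 19 of 51 cases and fell in 4, whereas of the 40 outside the study's tables, 8 rose and 4 fell, nearer to the background. Polygalacturonases GSVIVT00026920001 and GSVIVT00002737001, which cut pectin, had 3.34, 5.02 and 4.87 and 3.92, 3.70 and 3.44. Pectinesterase 53 (GSVIVT00016652001), which removes methyl groups from pectin, had 3.22, 3.65 and 3.50, whereas another pectinesterase (GSVIVT00009598001) had -2.40, -2.32 and -3.16. Endoglucanase 24 (GSVIVT00035959001) had 3.07, 3.43 and 4.07. Extensins and proline-rich proteins were called higher in 11 and lower in 6 of 52 cases, and outside the study's tables in 5 and 6 of 44.

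Phenolic and terpenoid metabolism was raised by members that mostly came from the study's tables. Of 10 probes matched to stilbene synthases, enzymes that make resveratrol, 8 rose and 2 fell. The 8 are the table members and are all named stilbene synthase. The 2 that fell are named only as chalcone and stilbene synthase family, so they need not make resveratrol. Stilbene synthase 4 (GSVIVT00007777001) had 3.71, 3.63 and 4.40, with control RNA well above background on only 2 arrays, and a chalcone and stilbene synthase family gene (GSVIVT00036027001) had -2.19, -2.25 and -2.74. Phenylpropanoid and flavonoid enzymes rose in 11 of 21 cases and fell in 2, and in 4 and 1 of the 13 outside the tables. The cinnamate hydroxylase family member CYP73A100 (GSVIVT00017017001), an early step from phenylalanine, had 1.97, 2.92 and 3.09. Of probes named flavonoid 3',5'-hydroxylase 2, a pigment enzyme, GSVIVT00000646001 had 3.66, 3.18 and 3.40 and GSVIVT00022293001 -1.78, -2.12 and -2.60, the second of these calls being lost with the loess fit.

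Dirigent proteins, which steer the coupling of phenolic radicals, rose in 6 of 10 cases and fell in 0, but outside the study's tables in 1 of 5. Dirigent protein 22 (GSVIVT00024744001) had 5.18, 5.24 and 4.89, a mean of 5.10 ± 0.19 (SD, n = 3). UDP-glycosyltransferases, which attach sugars to small molecules, rose in 11 of 28 cases and fell in 2, or 3 and 1 of 19 outside the tables. Crocetin glucosyltransferase (GSVIVT00003476001) had 4.66, 4.87 and 4.54 and an anthocyanidin 3-O-glucosyltransferase 2-like gene (GSVIVT00031498001) 2.60, 3.78 and 3.48. All 5 tested terpene synthases stand in the tables: 4 rose, such as a valencene synthase-like gene (GSVIVT00021769001) with 2.74, 4.15 and 3.79, and the germacrene D synthase-like gene GSVIVT00027702001 had -1.55, -2.01 and -2.23.

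Chitinases, glucanases and pathogenesis-related proteins moved both ways, with 9 of 21 higher and 4 lower, or 3 and 0 of 11 outside the tables. The endo-1,3-beta-glucosidase GSVIVT00022221001, a callose-degrading enzyme, had 3.44, 4.60 and 4.35 and a basic isoform (GSVIVT00025336001) 3.90, 3.22 and 3.48. Against these, the GVI isoform (GSVIVT00015734001) had -3.16, -3.00 and -2.74 and a class I chitinase (GSVIVT00036222001) -2.65, -2.68 and -3.06. For these 4 genes, the 3 arrays of each agreed in sign and lay past 2-fold.

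Genes of reactive oxygen were the study's own question, and it followed 12 of them by qRT-PCR. The array values after PHC put 6 of the 12 higher, 5 lower and 1 uncalled. The respiratory burst oxidases VvRBOHE (GSVIVT00016386001) and VvRBOHA (GSVIVT00002525001), which make superoxide at the plasma membrane, had -1.57, -0.91 and -1.18 and -2.19, -1.64 and -2.05, with means of -1.22 ± 0.33 (SD, n = 3) and -1.96 ± 0.29 (SD, n = 3). Both were lower on each array, and the VvRBOHE call was lost with the loess fit and with median centring.

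VvCAT1 (GSVIVT00004080001), a catalase that splits hydrogen peroxide, had -1.30, -1.81 and -1.61 (adjusted p = 2.75e-05), and the call was lost with median centring. VvAPX3 (GSVIVT00036747001), an ascorbate peroxidase of the same task, had -1.81, -1.67 and -1.77, the tightest of the 12. The iron superoxide dismutases VvFSD3 (GSVIVT00007083001) and VvFSD (GSVIVT00014163001), which turn superoxide to peroxide in chloroplasts, had 1.91, 1.61 and 1.95 and 1.79, 1.27 and 1.73. VvCAT1 and VvAPX3 were thus lower and both dismutases higher on each PHC array. For VvFSD this sign is opposite to the one the study gives for its arrays, whereas its qRT-PCR after PHC showed an early rise. At 24 h the study's qRT-PCR had VvCAT1 lower as well. It had VvAPX3 higher and VvFSD3 lower, opposite to these array values.

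Peroxidase VvPOD72 (GSVIVT00031598001) had 4.94, 3.87 and 4.21, with control RNA well above background on only 2 arrays, and VvPOD12 (GSVIVT00031723001) had -1.93, -1.48 and -1.73. By the study's qRT-PCR VvPOD72 returned to normal levels after an early peak, unlike these array values at 24 h, and VvPOD12 was lower as well. VvHB2 (GSVIVT00036443001), a hemoglobin that removes nitric oxide, had 2.21, 3.50 and 3.52, and was still raised at 24 h in the study's qRT-PCR. VvAOX2 (GSVIVT00003173001), the alternative oxidase that bypasses the last respiratory complexes, had 0.75, 1.09 and 1.38, and its call was lost with the loess fit and without PHC replicate 3. VvGPX2 (GSVIVT00001920001), a glutathione peroxidase, had 2.07, 0.21 and 1.02 (adjusted p = 0.0399), a spread as wide as its mean, and it was not called without PHC replicate 1, where its mean was 0.61. VvDOX1 (GSVIVT00020782001), an alpha-dioxygenase that oxidizes fatty acids, had -0.03, 0.17 and 0.55 and was not called (adjusted p = 0.776).

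**Figure D4:**
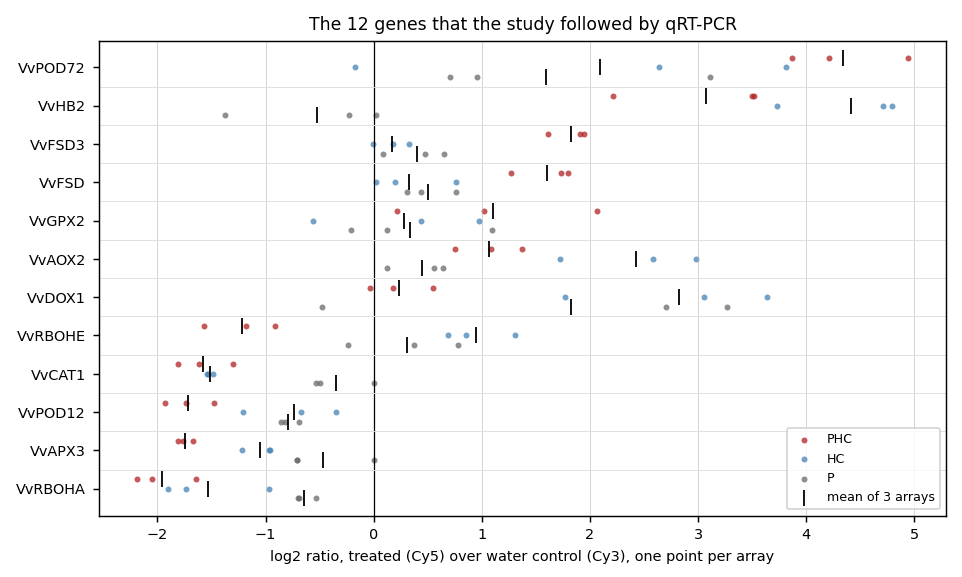
Log2 ratio of treated over water control (x axis) for the 12 reactive oxygen genes, 1 point per array for PHC (red), HC (blue) and P (grey), with black ticks for means. VvPOD72 and VvHB2 have the highest PHC points, up to 4.94 and 3.52, and VvDOX1 has PHC points around 0 while its 3 HC points lie between 1.77 and 3.64.

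Across the wider families, class III peroxidases were called in both directions, 15 higher and 10 lower of 42, but 0 of the 9 members outside the study's tables were called. Peroxidase N1-like (GSVIVT00031593001), a secreted enzyme of the family, had 5.52, 4.02 and 4.50, with 1 array lacking control signal well above background. Other antioxidant enzymes were evenly split, 5 and 5 of 11, of which 9 are in the tables. From these 11, cytosolic ascorbate peroxidase 2 (GSVIVT00024456001) had 2.10, 1.93 and 2.18. Another cytosolic ascorbate peroxidase (GSVIVT00023072001), added after its values were seen, was called lower with a mean of -1.10. The FQR1-like quinone reductases, which reduce quinones without leaving radicals, rose in 5 of 7 cases, or 1 of 3 outside the tables, with GSVIVT00005136001 at 3.16, 3.14 and 2.97. One of 3 glutathione S-transferases, GSVIVT00023538001, had 3.21, 2.41 and 2.89.

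LEA and cold-induced proteins, which protect cells during drying and cold, fell in 8 of 13 cases and rose in 1, with a median of -1.51. Of the 9 outside the study's tables, 4 fell and 1 rose. EMB-1-like is given above, and the embryonic protein DC-8-like (GSVIVT00021718001) had -3.02, -3.72 and -4.11 and the low temperature-induced lt101.2 (GSVIVT00023117001) -3.70, -3.39 and -4.23. The list's median on the single arrays was -0.91, -1.55 and -2.05, so replicate 3 was lowest. With the loess fit 5 fell and the median was -0.56.

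The wider list of abscisic acid and seed-maturation names had 8 higher and 8 lower of 40, with a median of -0.12. Of the 35 members outside the study's tables, 8 rose and 3 fell (median 0.14), so 5 of the 8 falls came from the tables. ABSCISIC ACID-INSENSITIVE 5 (GSVIVT00021625001), the bZIP factor of abscisic acid signalling in Arabidopsis seeds, had -3.48, -3.15 and -4.31, a mean of -3.65 ± 0.60 (SD, n = 3) (adjusted p = 5.98e-06). XERICO (GSVIVT00029063001), a RING protein that raises abscisic acid when overproduced in Arabidopsis, had -3.02, -3.11 and -3.26, and FUS3 (GSVIVT00037932001), a B3 factor of seed maturation, -2.84, -2.81 and -3.13. These 3 regulators were at -2.81 or below on every PHC array. Of the 8 members that rose, 6 are dehydration-responsive family proteins, which are putative methyltransferases rather than regulators of the hormone, with means from 1.08 to 1.82. The others are a GRAM domain protein and a lipid transfer protein. With median centring 13 members of this list rose and 6 fell.

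Genes of other hormones were few and partly chosen by the study. All 6 cytokinin genes stand in its tables, 5 higher and 1 lower (3 and 1 with the loess fit or median centring). Isopentenyltransferase 3 (GSVIVT00023692001), the first step of cytokinin synthesis, had 2.28, 3.33 and 3.26, and a phosphoribohydrolase (GSVIVT00024794001), which releases the active hormone, had 2.57, 2.84 and 2.64. A zeatin O-glucosyltransferase-like gene (GSVIVT00025630001), of the enzymes that store cytokinin as glucosides, had -2.11, -2.33 and -2.27. Enzymes that degrade cytokinin were higher as well, cytokinin dehydrogenase 3 (GSVIVT00013006001) by at least 1.75-fold and cytokinin oxidase 3 (GSVIVT00033806001) by at least 1.77-fold, with control RNA not well above background on any array. Both were added after their values were seen, and both calls were lost with the loess fit and with median centring.

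Auxin genes rose in 9 of 22 cases and fell in 1, with 7 and 1 of 20 outside the tables. Auxin efflux carrier component 2 (GSVIVT00031315001), a transporter of auxin between cells, had 2.80, 2.59 and 3.56, and the auxin-induced X10A-like gene (GSVIVT00036017001) 3.96, 2.90 and 4.10. The member that fell was a dormancy/auxin associated family protein (GSVIVT00022672001), whose relative in pea marks dormant axillary buds, with -2.38, -2.37 and -3.04. A gibberellin-responsive protein (GSVIVT00016335001) had 1.69, 2.09 and 2.31.

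The 4 jasmonate and salicylate genes all rose, and 3 of them are in the tables. Salicylate carboxymethyltransferase genes GSVIVT00024881001 and GSVIVT00024875001, which make methyl salicylate, had 4.98, 3.82 and 3.64 and 3.65, 2.75 and 2.76. In both, the control was well above background on only 2 arrays and replicate 1 was highest. The list of ethylene response factors, matched by name, was called in both directions, 11 higher and 13 lower of 49 (14 and 6 with median centring), and 3 and 2 of the 22 outside the tables. The higher ones include GSVIVT00016708001 (mean 1.21) and GSVIVT00027475001 (mean 1.79), named only as ethylene-responsive proteins, which need not be transcription factors. The ethylene-responsive factor 1B-like (GSVIVT00002192001) had 4.74, 3.71 and 3.70, the cytokinin response factor CRF2 (GSVIVT00002468001) 3.39, 2.80 and 2.82 and ERF010-like (GSVIVT00014863001) -2.75, -2.63 and -2.33.

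Other transcription factors were as mixed. The bHLH factors, DNA-binding dimers, rose in 12 of 36 cases and fell in 3, and outside the tables in 5 and 3 of 29, with bHLH93-like (GSVIVT00017700001) at 4.54, 4.71 and 4.31 and bHLH94-like (GSVIVT00011446001) at 3.20, 3.16 and 3.29. WRKY factors, often induced by defence, were 8 higher and 7 lower of 21, 20 of which are in the tables. A WRKY gene listed as WKRY protein (GSVIVT00031317001) had 2.17, 1.76 and 1.88 and WRKY 23 (GSVIVT00028138001) -2.07, -2.02 and -2.77.

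Of 6 NAC factors 2 rose and 3 fell, all 5 being in the tables. NAC 86 (GSVIVT00015787001), which in Arabidopsis acts in the maturation of sieve elements, had 4.06, 3.60 and 3.98, whereas NAC 18 (GSVIVT00031526001) had -3.00, -3.15 and -2.98 and the Cabernet Sauvignon NAC gene GSVIVT00036931001 -2.95, -3.06 and -2.93. The homeobox factor ATHB-40 (GSVIVT00024986001), whose Arabidopsis counterpart acts in dormant axillary buds, had -3.30, -2.64 and -3.58. ATHB-12 (GSVIVT00037197001), induced by abscisic acid in Arabidopsis, had -2.17, -2.28 and -2.79, and ATHB-6-like (GSVIVT00015181001) 1.78, 2.02 and 1.93. CONSTANS-LIKE 4 (GSVIVT00025685001) had 2.18, 3.00 and 2.71. MYB factors fell in 4 of 22 cases and rose in 1, with MYB24 (GSVIVT00030360001) at -2.01, -1.58 and -1.42, a call lost with the loess fit and with median centring.

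Receptor kinases and ubiquitin ligases were called in opposite directions more often. Leucine-rich repeat receptor kinases, which sense peptides and steroids, rose in 17 of 64 cases and fell in 5 (26.6% and 7.8%), and outside the tables in 16 and 4 of 62. GSVIVT00001030001 had 2.90, 2.19 and 2.73 and GSVIVT00010323001 -2.60, -2.52 and -2.73. Of 22 other receptor-like kinases 10 rose and 2 fell, but 0 rose and 1 fell of 11 outside the tables. FERONIA (GSVIVT00038056001), a sensor of the growing wall, had 2.15, 2.42 and 2.37, and the cysteine-rich kinase 10 (GSVIVT00010901001) 2.74, 2.33 and 2.49.

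Ubiquitin ligase subunits, which mark proteins for breakdown, fell in 17 of 80 cases and rose in 7 (21.2% and 8.8%) with a median of -0.48, but turned with median centring, under which 4 fell and 13 rose. Of the 75 outside the tables, 14 fell and 5 rose. The U-box ligase PUB24-like (GSVIVT00017518001) had 3.84, 3.13 and 4.92 and RMA1H1-like (GSVIVT00027654001) -3.02, -2.11 and -2.23. Subtilases, carboxypeptidases and aspartic proteases were 10 higher and 7 lower of 38, and 5 and 7 of the 33 outside the tables.

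Transporters of sugars, ions and nitrogen moved gene by gene. SWEET14 (GSVIVT00017991001), a sugar exporter, had -2.87, -2.24 and -3.35, whereas an MtN3 family gene (GSVIVT00033013001), of the same family, had 2.79, 2.29 and 2.60 and a putative hexose transporter (GSVIVT00025939001) -1.68, -1.89 and -2.06. In all, 8 of 28 sucrose and sugar transport genes rose and 4 fell. The AKT1-like potassium channel (GSVIVT00016836001) had 2.63, 3.68 and 3.20 and sulfate transporter 3.5 (GSVIVT00016767001) 2.21, 4.50 and 4.18, with replicate 1 the lowest array in both.

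NRT1/PTR family member 1.2 (GSVIVT00034361001) had 2.55, 2.64 and 2.57, whereas member 6.3 (GSVIVT00009628001), a nitrate transporter, had -1.51, -1.71 and -1.71, a call lost with median centring. Asparagine synthetase (GSVIVT00024074001), which stores nitrogen as asparagine, fell to -2.86, -2.84 and -3.83. Both probes named nitrilase NIT4B, GSVIVT00003679001 and GSVIVT00003689001, of the enzymes that break down the product of cyanide detoxification, had 0.89, 3.41 and 3.50 and 1.04, 3.36 and 3.09. Replicate 1 was far below the other arrays in both, and neither was called without PHC replicate 2 or without PHC replicate 3.

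**Figure D5:**
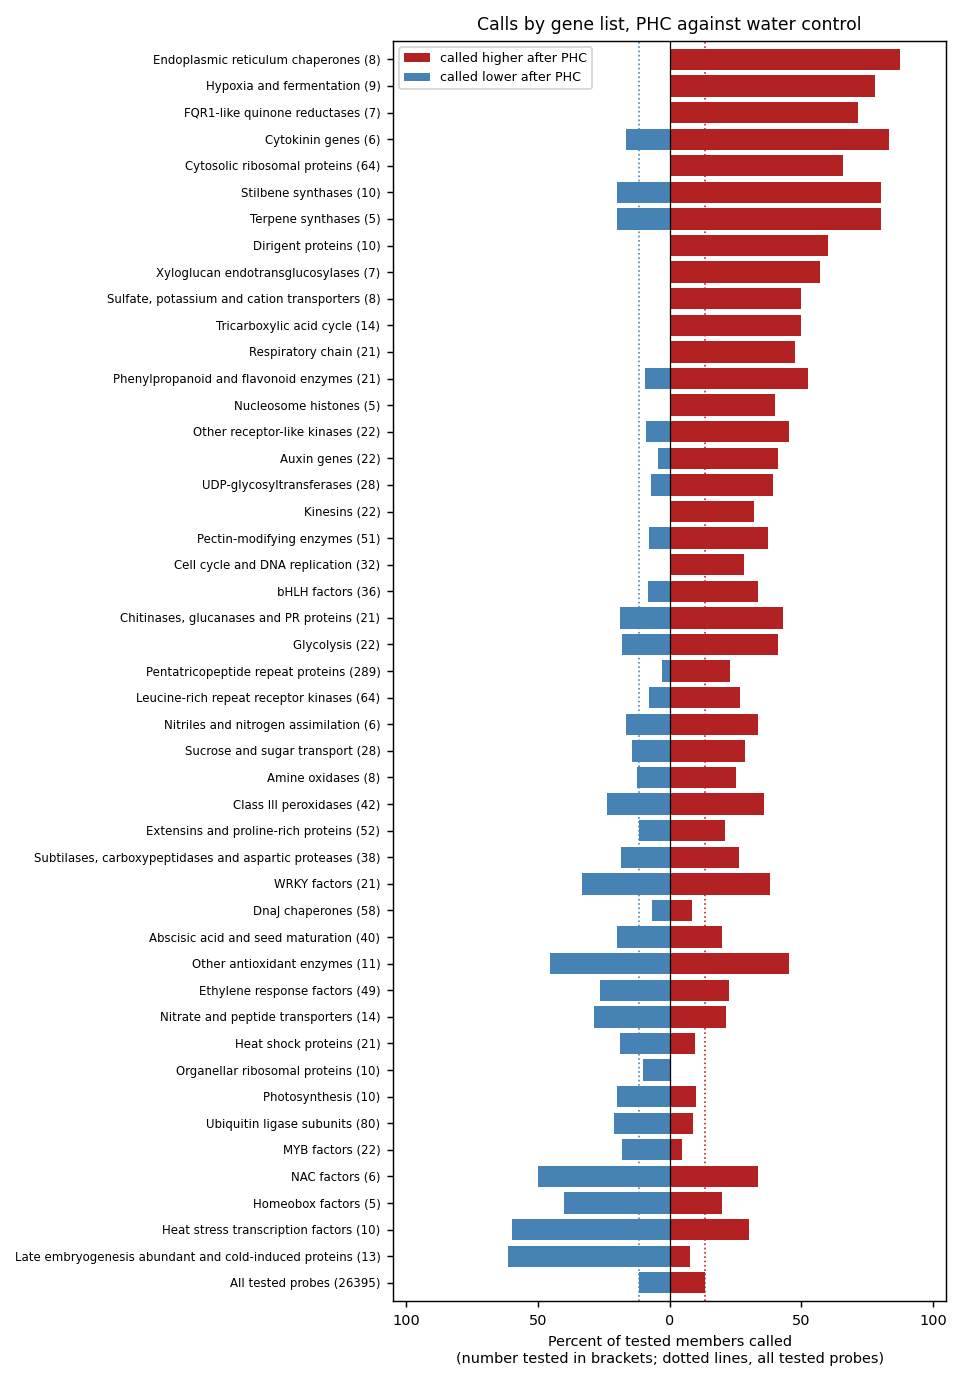
Percent of tested members called higher (red, to the right) and lower (blue, to the left) after PHC in each gene list with at least 5 tested members, ordered by the difference, with all tested probes at the bottom and dotted lines at their 13.5% and 11.7%. The endoplasmic reticulum chaperone list, matched by name, leads with 7 of 8 higher, and the late embryogenesis abundant and cold-induced proteins are at the other end with 8 of 13 lower.

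The difference between PHC and the single treatments was tested in the same fit, and the treatments have the same kind of control. PHC was higher than HC for 2256 probes and lower for 1407 (8.55% and 5.33%), and higher than P for 1281 and lower for 1271 (4.85% and 4.82%). Relative to P the counts rest on single arrays: 763 probes were higher and 850 lower without PHC replicate 3, 867 and 961 without P replicate 3, and 911 higher without P replicate 1. The HC arrays were less alike than the PHC arrays (correlations 0.504 to 0.661), and without HC replicate 3 PHC was higher than HC for 1886 probes and lower for 1369.

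Cytosolic ribosomal proteins were higher after PHC than after HC in 21 of 64 cases and than after P in 19, and lower in 0 of either. Ribosomal protein S17, given above, had HC values of 0.81, 1.25 and 1.31 and P values of 0.94, 1.95 and 1.08, and PHC exceeded them by 2.50 and 2.30 (adjusted p = 0.00123 and 0.00215). Kinesins were higher after PHC than after HC in 9 of 22 cases, and than after P in 1. The replication licensing factor GSVIVT00003433001 exceeded HC by 3.52 (adjusted p = 0.0077), whereas its difference from P was 1.03 ± 0.71 (SE, adjusted p = 0.358). In the endoplasmic reticulum chaperone list 6 of 8 members exceeded HC and 5 exceeded P, the calnexin homolog by 2.57 and 1.89, the second call being lost without P replicate 3.

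Among seed-maturation genes, 6 of 13 LEA and cold-induced proteins were lower after PHC than after HC and 6 lower than after P. ABSCISIC ACID-INSENSITIVE 5 (GSVIVT00021625001) had HC values of -0.89, -1.06 and -1.39 and P values of -1.40, -1.02 and -1.09, and the difference of PHC was -2.53 from HC and -2.48 from P (adjusted p = 0.00127 and 0.00184). XERICO (GSVIVT00029063001) differed by -1.88 from HC and by -1.99 from P (adjusted p = 0.000857 and 0.000637). EMB-1-like, lt101.2 and psbQ-like protein 2 were also lower after PHC than after either treatment alone, with differences from -2.52 to -2.05 (adjusted p of 0.00084 to 0.00467). In these genes no PHC array reached the range of either treatment.

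Further named genes gave these differences from HC and P. Dirigent protein 22 (GSVIVT00024744001) had 7.48, 5.63 and 7.55 after HC, and PHC minus HC was -1.78 (adjusted p = 0.0217), a call lost on leaving out PHC replicate 1 or 3 or HC replicate 1 or 3, while PHC exceeded P by 4.08 (adjusted p = 0.00161). For 12-oxophytodienoate reductase 11 (GSVIVT00021918001) the difference from HC was -0.91 ± 0.39 (SE, adjusted p = 0.113) and that from P 4.33 (adjusted p = 0.000706). VvAOX2 (GSVIVT00003173001) had 1.73, 2.98 and 2.58 after HC, and PHC minus HC was -1.36 (adjusted p = 0.015), a call lost with median centring, with array weights and without PHC replicate 1. For VvHB2 (GSVIVT00036443001) PHC exceeded P by 3.60 (adjusted p = 0.00281) and differed from HC by -1.33 ± 0.49 (SE, adjusted p = 0.0723). VvFSD3 (GSVIVT00007083001) exceeded both, by 1.65 and 1.42 (adjusted p = 0.00127 and 0.0028).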

How the data were processed

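The 9 arrays (Agilent custom design, 2 colours, no dye swap) were read from the deposited tables, and the 3 PHC arrays carry the results. The intensity values are linear spot signals that the authors obtained with Agilent Feature Extraction (10.5), as mean, background and processed signals. The deposited log2 ratios (treated Cy5 over control Cy3) had been background-subtracted and dye-normalized by rank-consistent LOWESS, and the series table repeats them rounded. Deposited ratio p-values were not used. The number of arrays limits the precision.

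Outlier-flagged spots were left out (25 probe values on PHC arrays). A probe was tested if some treatment had it well above background, in Cy3 or Cy5, on each of its 3 arrays, which left out 3733. Means were tested against 0 in limma (3.58.1, R 4.3.3) with all 9 arrays in 1 fit, which borrows the spread of HC and P arrays, with Benjamini-Hochberg adjustment over 26395 probes, and called at an adjusted p under 0.05 and at least 2-fold. SD is over the 3 arrays and SE is that of the fit. The alternatives were normexp (offset 50) on mean signals with loess or with median centring, the series table, other filters and thresholds, array weights, the replicate number as a block, PHC arrays alone, and each array left out. The fit was tested on simulated data.

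Gene lists are words matched to probe names, of which 4 lists were trimmed of false matches, and no list was tested. Named genes are the 12 qRT-PCR genes, the 12 largest named rises and falls over all probes, and up to 3 of each per list, called, of 1 sign, and with Cy3 and Cy5 both well above background on 2 or more PHC arrays. A gene named outside the rule is said to be chosen after its values were seen. 1 of the falls, with an uninformative name, is not shown. Same-numbered deviations correlated at 0.299 to 0.628 between P and PHC arrays, all 3 pairs over 0.1. Between HC and PHC arrays 2 of 3 pairs were over 0.1. Pairing by number is thus read from the data and not from the labels. The main fit has no term for the number, so its printed tests are unpaired. Only the alternative with the replicate number as a block takes it in. Control (Cy3) signals correlated at 0.992 to 0.996 between arrays of the same number and at 0.979 to 0.993 between others. Members and lists were chosen with earlier results of these data known. Probe sequences and positions were not used here.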

Additional observations from a re-analysis of the deposited data

Results flagged for a closer look

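In 4 named genes all 3 PHC arrays lay on one side of 0 and all 3 HC arrays on the other, and the difference itself passed the test in limma. No named gene did so between PHC and P. The xyloglucan endotransglycosylase GSVIVT00006913001, a wall-remodelling enzyme, had 5.31, 3.61 and 4.29 after PHC and -2.63, -0.36 and -1.08 after HC, a difference of 5.76 (adjusted p = 0.00123). After P it had 3.47, 3.15 and 1.96. The kinesin GSVIVT00000424001 had 1.92, 1.48 and 2.00 after PHC and -0.17, -0.26 and -1.28 after HC, a difference of 2.37 (adjusted p = 0.00156). The LEA domain protein GSVIVT00024917001, the only member of its list that rose, had 1.83, 1.67 and 1.71 after PHC and -0.29, -0.42 and -0.61 after HC, a difference of 2.18 (adjusted p = 0.000622). VvRBOHE (GSVIVT00016386001) ran the other way, with -1.57, -0.91 and -1.18 after PHC and 0.69, 0.86 and 1.31 after HC, a difference of -2.17 (adjusted p = 0.00184). These 4 differences from HC stayed past the threshold in every alternative run, although the VvRBOHE ratio against its own control was not called with the loess fit or with median centring. Whether the HC canes were pruned is described differently by the labels and the methods, and its part in these differences was not tested.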

How the results depend on the processing

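The counts of PHC against control kept within 1.5 times under the series table, the dim-probe filters, unadjusted p, array weights and PHC arrays alone. Without a fold limit 7007 were higher and 7674 lower, the loess fit gave 1925 lower, and median centring 5486 higher and 747 lower. PHC minus HC gave 4082 higher and 3449 lower without a fold limit and 3470 and 423 with centring, and PHC minus P 2729 and 3030 without a fold limit, 2161 and 392 with centring and 817 lower with loess. The cause was not tested, apart from the fold limit, whose removal adds small changes. Leaving out in turn 1 array of the treatments compared gave 3248 to 3729 higher and 2738 to 3402 lower for PHC against control. The ranges were 1620 to 2736 and 1011 to 1890 for PHC minus HC, and 763 to 1353 and 850 to 1415 for PHC minus P. Of 146 called genes 132 held their call in each setting that tested them (the both-channel filter tested 133), 14 lost it in at least 1, and 0 turned. VvDOX1 (GSVIVT00020782001), not called, turned to -0.16 with centring, and VvCAT1 (GSVIVT00004080001 PHC minus HC), at -0.06, turned to 0.27 with centring and lay between -0.19 and 0.0593 on leaving out 1 array, turning without PHC replicate 2. With the replicate number as a block, PHC raised 3619 and lowered 3127 probes, PHC minus HC gave 2477 and 1541, and PHC minus P 1468 and 1396, and of the calls printed only the VvHB2 difference from HC changed (GSVIVT00036443001 PHC minus HC, adjusted p = 0.002 in limma). Deviations of PHC and HC arrays of the same number correlated at 0.00285 to 0.577. For dim probes, array signal over background limits what can be measured.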

Other observations

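Further named families were chosen after their values were seen, so their counts are descriptions. Phototropic-responsive NPH3 family proteins, adaptors of light-driven growth, rose in 6 of 11 cases and fell in 0, with a median of 1.04 beside -0.07 for all tested probes, and GSVIVT00033839001 had 2.26, 3.04 and 3.33 on the PHC arrays. Glycosyl hydrolase family 17 members, which cut beta-glucans such as callose, rose in 8 of 15 cases and fell in 0, with GSVIVT00025946001 at 2.59, 2.43 and 2.56. Proteasome subunits and their assembly factors rose in 4 of 12 cases and fell in 0, with a median of 0.68, and the maturation factor GSVIVT00038169001 had 1.91, 1.64 and 1.93. Amino acid transporters rose in 5 of 15 cases and fell in 1, GSVIVT00014742001 having 2.27, 2.48 and 2.73.

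ABC transporters, which pump many small molecules across membranes, fell in 5 of 17 cases and rose in 1 with a median of -0.69, or 2 and 1 with median centring. GSVIVT00023098001 had -2.31, -1.81 and -2.26, and the G family member 4-like gene GSVIVT00037777001, the one that rose, had 2.69, 3.15 and 3.56. F-box family proteins, the adaptors of a class of ubiquitin ligases, make up 66 of the 80 ubiquitin ligase subunits described above and are not a separate result. They fell in 14 of 66 cases and rose in 5, but turned with median centring, with 1 lower and 11 higher. U-box proteins, ligases of another class, rose in 5 of 13 cases and fell in 2.

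The effect of rescaling differed with brightness. Tested probes were split by mean signal into 4 bins. In the dimmest bin (6599 probes), 695 were higher and 470 lower with the deposited ratio, 136 and 28 with the loess fit, and 95 and 120 with median centring. In the brightest bin the counts were 971 and 999, 1024 and 879, and 2287 and 225. The median log2 ratio of the brightest bin was -0.04 with the deposited ratio, 0.02 with loess and 0.64 with centring. In the dimmest bin it was -0.07, 0.004 and -0.42. With centring the median thus rose with brightness, from -0.42 through 0.18 and 0.56 to 0.64, so centring leaves a trend with signal in the ratios.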
